A study of Arabidopsis thaliana with 8 samples.

Results

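The asap triple mutant was compared with the sr45 single mutant in whole Arabidopsis thaliana seedlings, a comparison of 2 lines with similarly low SR45 transcript that differ by the insertion alleles in SAP18 and ACINUS. It used the 2 asap and the 2 sr45 libraries, which are 4 of the 8 RNA-sequencing libraries of the study, and it took in every gene with values. The asap line carries T-DNA insertions in SAP18, SR45 and ACINUS and was obtained by crossing 2 double mutants, sap18 sr45 with sap18 acinus, and the sr45 line carries the T-DNA allele sr45-1. The sap18sr45 double mutant and the wild-type accession Col0, with 2 libraries each, served only to place the levels. All seedlings grew on MS medium for 11 days at 22 °C with 16 h of light and 8 h of dark. Each mutant is a single line and asap came from crosses, so other differences between the lines cannot be told apart from the 2 alleles. Whether both libraries of a line stand for separate cultures is not in the labels, and every p-value here reflects the spread of these libraries, which may be technical.

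The ASAP complex (apoptosis- and splicing-associated protein) joins SAP18, ACINUS and the serine/arginine-rich protein SR45, the plant counterpart of animal RNPS1. In animals it is an auxiliary part of the exon-junction complex, the set of proteins left on messenger RNA where introns have been removed, and it influences splice-site choice. SAP18 was first described in animals with the Sin3 histone deacetylase complex, and SR45 has been tied in Arabidopsis to splicing, flowering time and responses to sugar and abscisic acid.

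The libraries held 2119471 and 2634021 counts in asap and 1295244 and 2309239 counts in sr45 over 9536 loci with values, which cover chromosome 1 and the start of chromosome 2 and make up 27.6% of the annotated protein-coding genes. SAP18 and ACINUS lie on chromosome arms not analysed here, so only the SR45 allele could be checked. Levels are given in cRPKM, reads per kilobase of uniquely mappable transcript and scaled to the mapped reads of the library. The 2 libraries of a line spread more in asap and sr45, with a biological coefficient of variation of 13% and 10.3%, than in sap18sr45 and Col0, at 4.44% and 3.5%. A short locus beside the ribosomal RNA genes of chromosome 2, AT2G01021, held 15252 and 6930 counts in asap and 16492 and 2765 in sr45. The 2 libraries of each of these lines differed more in it than the lines did.

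SR45 (AT1G16610, chromosome 1) stood at 6.23 and 3.85 cRPKM in the asap libraries, against 6.62 and 4.99 in the sr45 libraries. The groups overlapped, and the log2 fold change of asap over sr45 was -0.34 ± 0.33 (SE, n = 2 libraries each, edgeR quasi-likelihood test, Benjamini-Hochberg adjusted p = 0.545). Its level was 13.6 and 14.4 cRPKM in sap18sr45 and 24.2 and 21 cRPKM in Col0, both above the 2 lines compared here. Counts over a whole gene do not separate reads on either side of an insertion. Of 4 genes kept in the list of the ASAP and exon-junction complexes and of nonsense-mediated decay, 1 rose, namely Y14 (AT1G51510), which encodes a core protein of the exon-junction complex. AT1G15200, which the paper names as the SAP18 interactor PININ, was left out of this list because the expected symbol was not found at that locus. Y14 had 58.5 and 71 cRPKM in asap, against 39.7 and 42.1 in sr45, a log2 fold change of 0.52 ± 0.14 (adjusted p = 0.00929). That call was lost without sr45 replicate 1 (adjusted p = 0.0593) and without asap replicate 2 (adjusted p = 0.135). MEE63, the Arabidopsis MAGO protein that pairs with Y14, had 183 and 182 cRPKM in asap and 161 and 150 in sr45 (adjusted p = 0.55). UPF3, a nonsense-mediated decay factor, had 14.8 and 16.3 cRPKM in asap and 18.6 and 18.8 in sr45 (adjusted p = 0.0632). Among 9 SR and related splicing factors, SR45A (AT1G07350) rose, with 56.3 and 51 cRPKM in asap against 33.2 and 38.3 in sr45 (log2 fold change 0.43 ± 0.13, adjusted p = 0.0159), a call lost without sr45 replicate 1 (adjusted p = 0.17) and without asap replicate 1 (adjusted p = 0.0775).

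Of 5064 loci with enough counts to test, 996 (19.7%) differed between asap and sr45 at an adjusted p under 0.05. In what follows, rose and fell refer to asap relative to sr45 at this threshold. In asap 477 loci (9.42%) rose and 519 (10.2%) fell. The 2 directions were unlike in size. The median change of the genes that rose was 0.93 on the log2 scale and 213 of them passed 2-fold, while the median change of those that fell had a size of 0.56 and 56 passed 2-fold. A change over 4-fold was seen for 77 genes that rose and 5 that fell. The share called also differed by level: with the genes in 4 equal bins by mean cRPKM, 14.7% of the highest bin rose and 27.1% fell, and in the lowest bin 6.7% rose and 1.18% fell. Genes with more counts pass the test at smaller changes, so these shares do not show that level affected the change. The median log2 fold change was 0.18 in the lowest bin and -0.06 in the highest. Every called locus had both asap libraries on the same side of both sr45 libraries in scaled counts, which held for 57.3% of all loci tested.

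The split depends on how libraries were scaled. The trimmed mean of M-values (TMM), used for the test, gave 47.9% of calls as higher in asap, with a median log2 fold change over all genes of 0.02. Taken as deposited, cRPKM puts the asap libraries 0.13 higher on the log2 scale relative to TMM, and limma on log2(cRPKM + 0.5) called 644 genes higher and 225 lower, or 74.1% higher. Fold changes below are relative to the TMM scale, so cRPKM values of a gene that fell can lie closer together than its fold change, and those of a gene that rose farther apart.

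**Figure D1:**
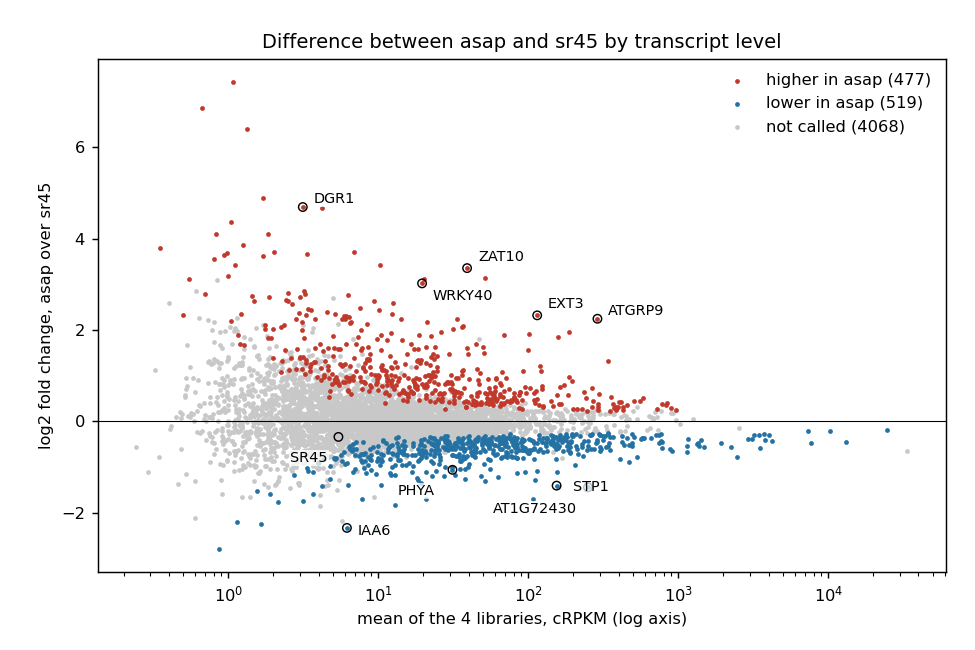
Log2 fold change of asap over sr45 for each of the 5064 loci tested (vertical axis) against the mean cRPKM of the 4 libraries (horizontal log axis), with the 477 loci higher in asap in red, the 519 lower in asap in blue and the others in grey. Circles mark 10 named genes; changes over 4-fold lie mostly above the zero line, and the most abundant called genes lie just below it.

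ZAT10 (AT1G27730) was among the large rises. It encodes a zinc-finger repressor induced within minutes to hours by cold, salt, wounding and strong light. It stood at 75.7 and 67.4 cRPKM in asap, against 8.4 and 4.9 cRPKM in sr45, a 10.3-fold rise (log2 fold change 3.36 ± 0.21, edgeR adjusted p = 7.45e-13). WRKY40 (AT1G80840), a pathogen-induced WRKY transcription factor that restrains defence and abscisic acid responses, had 38.3 and 32.3 cRPKM in asap, against 3.69 and 4.05 in sr45 (3.02 ± 0.25, adjusted p = 1.82e-10). Neither gene was raised in sap18sr45, where the means were 2.83 ± 1.48 and 2.05 ± 0.18 cRPKM (SD, n = 2), or in Col0, where they were 2.64 ± 0.05 and 3.41 ± 0.04. The asap libraries thus stood apart from all 6 other libraries in both genes.

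Both belong to a list of 26 rapidly induced stress regulators, of which 20 were tested, 10 rose and 3 fell, with a median log2 fold change of 0.82 against 0.02 for all loci tested. RAV2 (AT1G68840), a repressor of flowering and growth, had 223 and 234 cRPKM in asap and 114 and 123 in sr45 (0.80 ± 0.09, adjusted p = 7.29e-08). ERF11 (AT1G28370), an ethylene response factor that acts as a repressor, had 7.95 and 7.74 cRPKM in asap, against 1.01 and 1.56 in sr45 (2.39 ± 0.49, adjusted p = 0.000564). CML38, a calmodulin-like protein induced by wounding and low oxygen, had 13.4 and 9.95 cRPKM in asap and 2.91 and 2.93 in sr45 (1.84 ± 0.42, adjusted p = 0.00191). The other members that rose were TEM1, RAV1, MYC2, WRKY6 and ERF018. ERF018 lost its call without sr45 replicate 1 (adjusted p = 0.194), without sr45 replicate 2 (0.161) and without asap replicate 1 (0.288). The 3 members that fell were not low genes throughout: the NAC factor NAC029, which promotes leaf senescence, had 29 and 28 cRPKM in asap and 45.3 and 45.6 in sr45 (-0.82 ± 0.15, adjusted p = 0.00013), and ERF012 had 24.6 and 29.2 in asap and 40.2 and 47.6 in sr45 (-0.86 ± 0.15, adjusted p = 0.000124). LOX3, a lipoxygenase of jasmonate synthesis, had 0.49 and 1.21 cRPKM in asap and 2.16 and 2.35 in sr45 (-1.52 ± 0.46, adjusted p = 0.0184). Its call was lost without sr45 replicate 1 (0.0602), without sr45 replicate 2 (0.174) and without asap replicate 1 (0.0722), and its change was -2.36 without asap replicate 2.

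Of 10 WRKY factors tested, 6 rose and 0 fell. Besides WRKY40 and WRKY6 these were WRKY65, WRKY36, WRKY14 and WRKY57. WRKY65 (AT1G29280) had 13.5 and 12.4 cRPKM in asap, against 2.68 and 1.65 in sr45 (2.49 ± 0.38, adjusted p = 1.42e-05), with 5.33 cRPKM on average in sap18sr45 and 5.61 in Col0. Unlike WRKY40, it therefore stood lower in sr45 than in the other genotypes. WRKY36 had 4.42 and 5.89 cRPKM in asap and 0.62 and 1.53 in sr45 (2.00 ± 0.54, adjusted p = 0.00791). It lost its call without sr45 replicate 1 (adjusted p = 0.1), and its change was 2.88 without sr45 replicate 2. WRKY14 lost its call without sr45 replicate 1 (adjusted p = 0.126), WRKY57 without sr45 replicate 2 (0.127) and WRKY6 without sr45 replicate 2 (0.478, with a change of 0.54) and asap replicate 2 (0.137). The count of WRKY factors that rose was 4 without sr45 replicate 1, 4 without sr45 replicate 2, 2 with DESeq2 and 3 with quantile-normalized voom.

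WRKY factors bind the W-box, whose core letters are TTGAC. Promoters were read from 250 bases before to 50 bases after the annotated gene start in the RefSeq annotation of TAIR10.1, for 7593 protein-coding loci, and searched on both strands, each motif by itself even where it shared bases with another. The core was found in 16 of the 20 promoters of the rapidly induced regulators tested (80%), and in 51% of all promoters read. These 20 are all members tested, of which 10 rose, 3 fell and 7 were not called. The share was 50% of 10 promoters for the WRKY list, 56.2% of 16 for the jasmonate list and 71.4% of 7 for the peroxidase list. Over all genes that rose it was in 55% of 469 promoters, and over those that fell in 51.3% of 507. A match is a description of letters and not of a binding site. To show where the letters lie in genes that rose, 1 match before the start is given for each of 5, from 5′ to 3′ on the gene's strand, with the core, or its complement GTCAA, in capitals.
ZAT10: ttctttttttGTCAActggttagttg
WRKY40: aaataagaatGTCAAccaactatcca
TIFY10A: agtttaggctTTGACtgttgactggt
ERF11: cgcccctttgTTGACttatatttgtc
RAV2: cttgaaagcgTTGACcctacctttcc
In TAIR10.1 these windows lie at chr1:9649515-9649540 on the minus strand for ZAT10, chr1:30383391-30383416 on the plus strand for WRKY40, chr1:6621617-6621642 on the plus strand for TIFY10A, chr1:9956981-9957006 on the minus strand for ERF11 and chr1:25880121-25880146 on the plus strand for RAV2. The match began 207, 160, 150, 16 and 24 bases before the annotated start of ZAT10, WRKY40, TIFY10A, ERF11 and RAV2. TIFY10A held 2 matches before its start, the other ones 1 each.

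Genes of jasmonate, the wound hormone, moved in both directions: of 16 tested, 4 rose and 4 fell. TIFY10A (JAZ1, AT1G19180), a repressor of jasmonate responses that is itself induced by the hormone, had 15.3 and 15.6 cRPKM in asap, against 3.99 and 4 in sr45 (1.80 ± 0.28, adjusted p = 1.41e-05). MYC2, the transcription factor that JAZ proteins hold back, had 14.1 and 11.9 cRPKM in asap and 6.76 and 5.12 in sr45 (1.01 ± 0.22, adjusted p = 0.00126), a call lost without sr45 replicate 2 (adjusted p = 0.059). The list members OPR1 and LOX1 also rose, by 0.66 ± 0.11 and 0.93 ± 0.19 (adjusted p = 4.76e-05 and 0.000381). Other JAZ genes fell. TIFY11B (JAZ6, AT1G72450) had 31.3 and 31.5 cRPKM in asap, against 64.5 and 65.3 in sr45 (-1.19 ± 0.13, adjusted p = 4.61e-08), and TIFY7 (JAZ9) had 51.7 and 61 in asap against 83 and 91.7 in sr45 (-0.78 ± 0.12, adjusted p = 8.75e-06). So JAZ1 and JAZ6, members of 1 family, changed in opposite directions. The count that fell was 2 without sr45 replicate 1 and 2 without sr45 replicate 2.

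**Figure D2:**
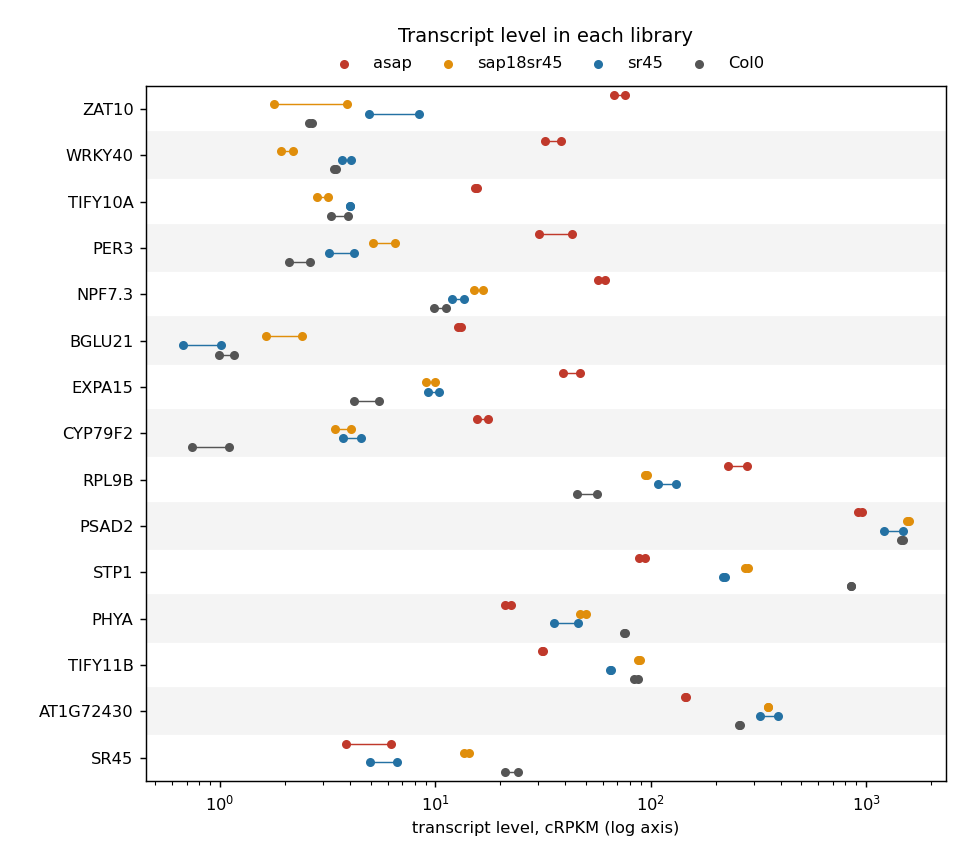
Transcript level in cRPKM (log axis) of 15 genes in each library, with asap in red, sap18sr45 in orange, sr45 in blue and Col0 in grey; each point is 1 library and a line joins the 2 libraries of a genotype. ZAT10 stands at 75.7 and 67.4 in asap against 8.4 and 4.9 in sr45, STP1 at 94.2 and 87.8 against 216 and 220, and SR45 overlaps between the 2 lines.

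The list of root and root hair genes holds 17 genes, of which 10 had enough counts to test, and 7 of these rose and 0 fell, with a median log2 fold change of 2.73. Since most are low in sr45, a member passed the count filter mainly through its level in asap. Summed over all 17, the list reached 69.3 and 64 cRPKM in asap, against 11.1 and 16.1 in sr45, 21.9 and 22.1 in sap18sr45 and 14.8 and 13.3 in Col0. PER3 (AT1G05260), a secreted class III peroxidase also known as RCI3, made up much of the sum, with 43.1 and 30.1 cRPKM in asap, against 3.2 and 4.19 in sr45 (3.11 ± 0.25, adjusted p = 1.52e-10). Without PER3 the sums were 26.2 and 33.8 in asap and 7.91 and 11.9 in sr45, which still did not overlap. The root hair expansin EXPA18 had 1.63 and 5.47 cRPKM in asap, against 0 and 0.28 in sr45, that is 11 and 46 counts against 0 and 2 (4.11 ± 1.01, adjusted p = 0.00367). Its change was 3.48 without sr45 replicate 1, 7.51 without sr45 replicate 2 and 4.7 without asap replicate 1, and its call was lost with quantile-normalized voom (0.0639). PER7, a peroxidase of root hairs, had 2.49 and 6.11 cRPKM in asap and 0.2 and 0.88 in sr45 (2.66 ± 0.68, adjusted p = 0.0049), lost its call without asap replicate 2 (adjusted p = 0.132, with a change of 1.84) and had a change of 4.23 without sr45 replicate 2. The root hair regulators BHLH83 (RHD6) and BHLH54 were at 0 in asap replicate 2. In that library 4 of the 17 genes were at 0, against 0 of 17 in asap replicate 1, and 6 and 3 of 17 in the sr45 libraries. The median was 1.29 without asap replicate 2, 0.89 with at least 50 counts asked for in both libraries of a line, and 1.23 and 0.91 on log2 cRPKM with pseudocounts of 0.5 and 1. The count of members that rose was 3 without sr45 replicate 1, 4 without sr45 replicate 2, 6 without asap replicate 1 and 2 without asap replicate 2, and 2 with quantile-normalized voom. In RNA of whole seedlings, more cells of a type and more RNA per cell cannot be told apart. The part that the share of root tissue may have in the other results was not tested.

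Several genes of nutrient uptake also rose: of 13 genes of nitrate, phosphate and iron nutrition tested, 5 rose and 1 fell. As a group the list did not shift, with a median log2 fold change of -0.02, 6 members positive and 7 negative. NPF7.3 (AT1G32450), the root transporter NRT1.5 that loads nitrate into the xylem, had 56.9 and 61.3 cRPKM in asap, against 11.9 and 13.5 in sr45 (2.06 ± 0.13, adjusted p = 5.36e-13). FRO2 (AT1G01580) encodes the enzyme that reduces ferric iron at the root surface, and its transcript had 11.4 and 10.2 cRPKM in asap and 3.46 and 1.23 in sr45 (2.18 ± 0.31, adjusted p = 5.1e-06). Its change ranged between 1.49 without sr45 replicate 2 and 2.97 without sr45 replicate 1. The nitrate transporter and sensor NPF6.3 (NRT1.1) rose by 0.62 ± 0.13 (adjusted p = 0.000831), and NAS4, a nicotianamine synthase of metal transport, also rose (1.02, adjusted p = 0.0138), a call lost without sr45 replicate 1 (0.0613), sr45 replicate 2 (0.0925) and asap replicate 1 (0.107). The high-affinity nitrate transporter NRT2.1, a member of the root list too, had 10 and 32 counts in asap and 0 and 2 in sr45 (3.69 ± 1.08, adjusted p = 0.0142), and lost its call without sr45 replicate 1 (0.165, with a change of 3.05) and without sr45 replicate 2 (0.0744, with a change of 7.08). The nitrate reductase gene NIA2 fell, with 377 and 378 cRPKM in asap and 432 and 495 in sr45 (-0.44 ± 0.08, adjusted p = 0.000149), a call lost with quantile-normalized voom (0.221, with a change of -0.11). Its sister NIA1, at 28.3 and 32.4 in asap and 24.4 and 30.9 in sr45, did not pass the test (adjusted p = 0.935). The count that rose was 3 without sr45 replicate 1 and 3 without sr45 replicate 2.

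Of 12 xyloglucan endotransglucosylases and expansins tested, 5 rose and 2 fell. The expansin EXPA15 (AT2G03090), which loosens walls, had 46.7 and 38.9 cRPKM in asap, against 9.22 and 10.4 in sr45 (1.96 ± 0.18, adjusted p = 1.65e-09). XTH17, an enzyme that cuts and rejoins xyloglucan and is known from roots, had 39.2 and 42.5 cRPKM in asap and 18.6 and 22.9 in sr45 (0.81 ± 0.21, adjusted p = 0.0049), a call lost without sr45 replicate 1 (adjusted p = 0.0711). Against these, XTH27 fell to 256 and 263 cRPKM in asap, against 345 and 349 in sr45 (-0.56 ± 0.08, adjusted p = 6.57e-06), and XTH33 to 6.79 and 5.45 in asap, against 16.6 and 12.9 in sr45 (-1.40 ± 0.29, adjusted p = 0.000634). Without asap replicate 2 the count that rose was 2. The list of peroxidases, chosen by the form of the symbol, had 7 members tested, of which 5 rose and 0 fell, but 2 of the 5, PRXIIB and PRXIIC, are peroxiredoxins and not class III peroxidases. PRXIIB lost its call without sr45 replicate 2 (0.11) and asap replicate 2 (0.174), and PRXIIC without sr45 replicate 2 (0.132). The other 3 were PER3, PER7 and PER11, and PER3 and PER7 belong to the root list too. Of 20 members with values only 7 passed the count filter, and PER7, with 1 and 8 counts in sr45, passed it mainly through its level in asap. The median log2 fold change was 1.29, and 0.65 with at least 50 counts asked for in both libraries of a line. Without the root list and AT2G01021, 5 members were tested and 3 rose. PER11 had 4.97 and 5.75 cRPKM in asap and 0.19 and 1.07 in sr45 (2.72 ± 0.57, adjusted p = 0.000739), with a change of 4.58 without sr45 replicate 2. The count that rose in this list was 3 without sr45 replicate 2 and 3 without asap replicate 2.

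Among the other large rises named by rule, DGR1 (AT1G80240), whose protein carries a domain of unknown function and is found in cell walls, had 65 and 55 counts in asap and 1 and 2 in sr45 (4.70 ± 0.66, adjusted p = 4.19e-06). BGLU21 (AT1G66270), a root beta-glucosidase that acts on coumarin glucosides, had 12.8 and 13.1 cRPKM in asap, against 0.67 and 1.01 in sr45 (3.71 ± 0.43, adjusted p = 1.62e-07). It has a close copy, BGLU22, and reads of near-identical genes may have been split between them. PME7, named as a pectin methylesterase, had 6.01 and 5.19 cRPKM in asap and 1 and 0.49 in sr45 (2.85 ± 0.44, adjusted p = 1.73e-05). The laccase gene LAC1 had 32 and 38 counts in asap and 2 and 1 in sr45 (3.87 ± 0.82, adjusted p = 0.000764), with a change of 4.77 without sr45 replicate 1 and 3.05 without sr45 replicate 2. MGP (MAGPIE, AT1G03840), a zinc-finger factor of root patterning, had 18 and 16 counts in asap and 0 in both sr45 libraries, which is at least 8.59-fold higher with a floor of 3 counts over the sr45 libraries. The rises of MGP, JAL10, JAL16, DTXL2, TPS22 and RXW24L rest on at most 3 counts in each sr45 library. In all 6 the call was lost without sr45 replicate 2, with adjusted p between 0.0658 and 0.453, and in all but RXW24L also without sr45 replicate 1, with adjusted p between 0.0649 and 0.223. Without 1 sr45 library or the other the log2 fold change of JAL10 was 3.81 or 6.91, that of JAL16 2.92 or 6.95, that of DTXL2 6.89 or 2.83 and that of RXW24L 7.35 or 1.77.

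Of 18 glucosinolate genes tested, 5 rose (27.8%) and 2 fell (11.1%), beside 9.42% and 10.2% over all loci tested. CYP79F1 (AT1G16410) and CYP79F2 (AT1G16400) encode the cytochromes P450 that open the synthesis of methionine-derived glucosinolates, the mustard oil precursors. CYP79F1 had 84.4 and 81.4 cRPKM in asap, against 40.1 and 38.6 in sr45 (0.93 ± 0.11, adjusted p = 2.94e-07), and CYP79F2 had 15.6 and 17.59 in asap, against 4.5 and 3.72 in sr45 (1.89 ± 0.27, adjusted p = 5e-06). These 2 genes are close neighbours of similar sequence, so reads may have been split between them. In Col0 both were lower than in sr45, at 10.4 and 0.92 cRPKM on average. The sulfotransferase gene SOT18, of the last step of the core pathway, rose by 0.65 ± 0.16 (adjusted p = 0.00284), a call lost without sr45 replicate 1 (adjusted p = 0.0823). The epithiospecifier gene ESP, which steers glucosinolate breakdown, fell by 0.88 ± 0.26 on the log2 scale (adjusted p = 0.0173), a call lost without sr45 replicate 2 (0.26) and without asap replicate 2 (0.118). The methyltransferase gene IGMT4 of the indole branch fell by 0.57 ± 0.13 (adjusted p = 0.00205), and lost its call without asap replicate 2 (0.0768), where the change was -0.36. The count that rose was 3 without sr45 replicate 1 and 3 without sr45 replicate 2.

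Of 18 glutathione transferases tested, enzymes that attach glutathione to toxic compounds, 5 rose (27.8%) and 2 fell (11.1%), beside 9.42% and 10.2% over all loci tested. GSTU20 had 344 and 347 cRPKM in asap, against 194 and 185 in sr45 (0.72 ± 0.09, adjusted p = 3.1e-07). GSTF14 had 17.2 and 18.5 in asap and 6.2 and 3.65 in sr45 (1.78 ± 0.31, adjusted p = 8.23e-05), and GSTU22 had 10.2 and 10.4 in asap and 1.73 and 1.96 in sr45 (2.31 ± 0.45, adjusted p = 0.000282). Falls were smaller and less stable: GSTU17 fell by 0.30 ± 0.09 and GSTU16 by 0.56 ± 0.17 (adjusted p = 0.0145 and 0.0216). GSTU17 lost its call without sr45 replicate 2 (0.142) and without asap replicate 2 (0.108), and GSTU16 without sr45 replicate 1 (0.0692), sr45 replicate 2 (0.156) and asap replicate 1 (0.104). The count of members that rose was 3 without sr45 replicate 1. In the wax and cutin list, 3 of 15 rose (20%) and 2 fell (13.3%). KCR1, a reductase of very-long-chain fatty acid elongation, had 57.5 and 66.5 cRPKM in asap, against 32.05 and 31.94 in sr45 (0.81 ± 0.13, adjusted p = 2.05e-05). The elongation enzyme gene AT1G04220, which carries the symbol KCS17 but the product name 3-ketoacyl-CoA synthase 2, rose by 1.39 ± 0.29 (adjusted p = 0.00073). KCS1, of the same enzyme family, fell to 51.9 and 52.9 cRPKM in asap, against 67.6 and 68.7 in sr45 (-0.52 ± 0.10, adjusted p = 0.0002).

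Of 68 genes tested in the list of cytosolic ribosomal proteins, 21 rose, 4 fell and 43 did not pass the test, and the median log2 fold change was 0.22. RPL9B (AT1G33120) had 229 and 279 cRPKM in asap, against 131 and 107 in sr45 (0.97 ± 0.14, adjusted p = 7.06e-06), with 95 on average in sap18sr45 and 50.7 in Col0. Its neighbour AT1G33140 carries the same symbol, so reads of the 2 copies may not be fully separable. RPL27AB had 436 and 446 cRPKM in asap, against 295 and 256 in sr45 (0.54 ± 0.09, adjusted p = 6.54e-05). RPP1A, an acidic protein of the ribosomal stalk, had 695 and 634 in asap, against 447 and 431 in sr45 (0.45 ± 0.09, adjusted p = 0.000255). The list was chosen by symbol and product and took in some proteins outside the cytosolic ribosome. The 4 falls were RPL4, RPL6, AT1G68660 and AT1G53560. RPL4 and RPL6 are plastid ribosomal proteins, AT1G68660 encodes a ClpS-like protein, and AT1G53560 a protein named as ribosomal of the L18ae family. RPL4 fell by 0.25 on the log2 scale (adjusted p = 0.0295), a call lost without sr45 replicate 2 (0.078), asap replicate 1 (0.227) and asap replicate 2 (0.184). RPL6 fell to 603 and 608 cRPKM in asap, against 702 and 706 in sr45 (-0.36 ± 0.08, adjusted p = 0.00127), a call lost without asap replicate 1 (0.0673). AT1G68660 fell to 176 and 190 in asap, against 279 and 283 in sr45 (-0.77 ± 0.09, adjusted p = 1.93e-07). AT1G53560 fell by 0.75 ± 0.20 (adjusted p = 0.00767), by 1.14 without asap replicate 2, and lost its call without sr45 replicate 2 (0.079) and without asap replicate 1 (0.103, with a change of -0.46). The count that rose was 11 without asap replicate 1, 12 without asap replicate 2, 12 with DESeq2 and 35 with limma on log2 cRPKM.

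Ribosomal protein promoters carry known short elements, and 2 of them are shown for RPL27AB because it rose. The site II element, TGGGCC, was in 57.4% of the promoters of the ribosomal genes tested and in 15.2% of all promoters read, and the telo-box, AAACCCT, in 32.4% and 9.63%. Over all genes that rose the shares were 18.3% and 11.1%, and over all genes tested 19% and 8.82%. RPL27AB held 2 matches of each element before its start, and 1 of each is given. In RPL27AB, on the plus strand, these site II letters lie in chr1:8262816-8262841 and this complement of the telo-box in chr1:8262697-8262722 of TAIR10.1, with the motifs in capitals.
RPL27AB site II: attcatataaTGGGCCtcatagccca
RPL27AB telo-box: cgagactttAGGGTTTatgagtgaag

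The photosynthetic apparatus moved the other way. Of 26 tested genes for light-harvesting antenna proteins and photosystem subunits, 0 rose and 23 fell, with a median log2 fold change of -0.39. PSAD2 (AT1G03130), a stromal subunit of photosystem I that docks ferredoxin, had 915 and 951 cRPKM in asap, against 1205 and 1476 in sr45 (-0.67 ± 0.09, adjusted p = 1.47e-06). PSB27-1, an assembly factor of photosystem II, had 734 and 754 in asap, against 1003 and 1036 in sr45 (-0.60 ± 0.08, adjusted p = 1.86e-06). LHCB2.2, an antenna protein of photosystem II, had 632 and 689 in asap, against 860 and 941 in sr45 (-0.59 ± 0.09, adjusted p = 7.58e-06). The most abundant of them, LHCB1.3, had 11660 and 11750 cRPKM in asap and 13760 and 15130 in sr45 (-0.45 ± 0.07, adjusted p = 2.92e-05). Members of the LHCB1 and LHCB2 families are near-identical, so their single values are uncertain. As a sum the list reached 68880 and 69870 cRPKM in asap, against 79040 and 82100 in sr45, 79210 and 78950 in sap18sr45 and 81340 and 84910 in Col0. The asap libraries were thus the lowest of all 8, and the other 3 genotypes lay close to each other. The falls were small and the count depends on scaling: 0 rose and 12 fell with limma on log2 cRPKM, 0 rose and 12 fell without asap replicate 1, and with quantile-normalized voom, which forces the most abundant genes of every library onto common values, 4 rose, 8 fell, the median was -0.07 and LHCB1.3 and LHCB6 turned to slightly positive changes that were not called.

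The I-box, GATAAG, a sequence described in promoters of light-regulated genes, was in 38.5% of the promoters of these 26 genes, in 23.9% of 507 promoters of all genes that fell and in 15.4% of 4912 promoters of genes tested. Over all 7593 promoters read the share was 14.7%. A share this high was not particular to these genes. The I-box was in 6 of 15 promoters of the leaf development list (40%) and in 5 of 13 of the sugar starvation list (38.5%). Most other lists had lower shares, among them the regulators of light and the clock, with 3 of 17. The match in LHCB6, which fell to 3381 and 3509 cRPKM in asap against 3915 and 4357 in sr45 (-0.41 ± 0.07, adjusted p = 0.000114), is shown as the example, at chr1:5447951-5447976 of TAIR10.1 on the minus strand, beginning 86 bases before the annotated start.
LHCB6: tttagatttaGATAAGtaaagtatta

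Regulators of light and the clock fell more often than they rose, with 2 of 17 tested higher and 7 lower. PHYA (AT1G09570), the photoreceptor of far-red light, had 22.4 and 21.1 cRPKM in asap, against 35.4 and 46 in sr45 (-1.06 ± 0.11, adjusted p = 2.22e-08), with 75.4 on average in Col0. The zinc-finger genes COL6 and COL7, related to CONSTANS, fell by 0.53 ± 0.09 and 0.47 ± 0.10 (adjusted p = 3.37e-05 and 0.000727), and the call of COL7 was lost on log2 cRPKM (0.0923). LHY, a morning factor of the clock, had 112 and 111 cRPKM in asap and 116 and 132 in sr45 (-0.30 ± 0.09, adjusted p = 0.0126), a call lost without sr45 replicate 2 (0.136), asap replicate 1 (0.117) and asap replicate 2 (0.0995), with quantile-normalized voom (0.477, with a change of -0.09) and on log2 cRPKM (0.346). GI, an evening clock gene, rose, with 3.94 and 5.02 cRPKM in asap and 1.93 and 2.02 in sr45 (1.03 ± 0.26, adjusted p = 0.00494), a call lost on log2 cRPKM (0.0556). RVE7, a MYB-like gene of the same family as LHY, had 21.7 and 24.1 in asap and 14.5 and 9.1 in sr45 (0.86 ± 0.28, adjusted p = 0.0279), and lost its call without sr45 replicate 2 (adjusted p = 0.444, with a change of 0.52) and without asap replicate 2 (0.0554). The count that fell was 4 without asap replicate 1, 4 with quantile-normalized voom and 2 with limma on log2 cRPKM.

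Of 13 genes induced by sugar starvation, 0 rose and 5 fell. STP1 (AT1G11260), the hexose-proton symporter of the plasma membrane, had 94.2 and 87.8 cRPKM in asap, against 216 and 220 in sr45 (-1.41 ± 0.09, adjusted p = 4.59e-13), and stood at 277 on average in sap18sr45 and 850.5 in Col0. EXL1 (AT1G35140), a gene needed when carbon is short, had 61.4 and 51.6 in asap, against 98.8 and 124 in sr45 (-1.14 ± 0.12, adjusted p = 3.61e-08). TPS8, of the trehalose-6-phosphate synthase family, had 91.9 and 81.7 in asap, against 114 and 128 in sr45 (-0.63 ± 0.09, adjusted p = 3.92e-06). DYL1, a dormancy-associated gene, and MCCA, a subunit of the carboxylase of leucine breakdown, fell by 0.62 ± 0.14 and 0.61 ± 0.11 (adjusted p = 0.00126 and 0.000195), and the call of MCCA was lost on log2 cRPKM (0.0616). Not every member followed. BCAT2, a transaminase of branched-chain amino acids, had 10.3 and 7.12 cRPKM in asap and 7.58 and 7.83 in sr45, which overlap (adjusted p = 0.973), although Col0 stood at 60.7 on average.

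In the auxin list of Aux/IAA, SAUR and GH3 genes, 0 of 22 rose and 4 fell. The SAUR-like gene AT1G72430 had 146 and 144 cRPKM in asap, against 320 and 390 in sr45 (-1.44 ± 0.10, adjusted p = 3.78e-12). IAA6 (AT1G52830), an Aux/IAA repressor of auxin responses, had 1.81 and 2.62 cRPKM in asap, against 8.33 and 12 in sr45 (-2.33 ± 0.45, adjusted p = 0.00025), with 5.6 on average in sap18sr45 and 3.17 in Col0, and lost its call without sr45 replicate 2 (adjusted p = 0.0658). IAA3, of the same family, had 113 and 113 in asap, against 149 and 147 in sr45 (-0.53 ± 0.09, adjusted p = 4.18e-05). For IAA6 and IAA3 the Col0 mean stood closer to asap than to sr45, and for AT1G72430 it lay between the 2 lines. The count that fell was 2 without sr45 replicate 2.

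Among the other large falls, TIFY11B, STP1, XTH33 and LOX3 have been given. AGL3 (SEPALLATA4, AT2G03710), a MADS-box factor, had 2.62 and 5.27 cRPKM in asap, against 11.5 and 12 in sr45 (-1.69 ± 0.31, adjusted p = 0.000179), with a change of -2.31 without asap replicate 2. PATL2, a lipid-binding protein of the cell plate family of patellins, had 20.3 and 27.6 in asap, against 49.7 and 54.1 in sr45 (-1.26 ± 0.12, adjusted p = 9.45e-09). WRR4 (AT1G56510), a resistance protein against white rust, had 13.4 and 15.9 in asap, against 31.3 and 30.1 in sr45 (-1.20 ± 0.12, adjusted p = 1.21e-08). DYW7, a pentatricopeptide repeat protein, ATSOFL1 and PHO1-H8, a relative of the phosphate exporter PHO1, fell by 1.27 ± 0.14, 1.19 ± 0.18 and 1.18 ± 0.19 (adjusted p = 6.3e-08, 1.26e-05 and 3.52e-05). Of the rest, AtRLP6 lost its call without sr45 replicate 2 (0.146), with a change of -3.38 without asap replicate 2, PMI2 (AT1G67070) without sr45 replicate 2 (0.0992), and RDL5 without sr45 replicate 1 (0.135), sr45 replicate 2 (0.174) and asap replicate 1 (0.086). CYCA1-2, with 3 and 2 counts in asap and 11 and 13 in sr45 (adjusted p = 0.0396), lost it without each of the 4 libraries, with adjusted p between 0.0533 and 0.415.

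The other lists held few called genes each. Over all loci tested 9.42% rose and 10.2% fell. The largest shares in these lists were 22.2% higher for salicylic acid and defence and 27.3% lower for hypoxia and ethylene. Abscisic acid and dehydration, with 11.1% each way, lay near the shares of all loci. For abscisic acid and dehydration, 2 of 18 rose and 2 fell: the dehydrin gene ERD10 had 47.6 and 51.8 cRPKM in asap, against 23.7 and 21.2 in sr45 (1.01 ± 0.14, adjusted p = 2.52e-06), and HAB1, a phosphatase that holds abscisic acid signalling back, had 28 and 26.2 in asap, against 41.3 and 42.6 in sr45 (-0.78 ± 0.11, adjusted p = 3.86e-06). For salicylic acid and defence 2 of 9 rose and 0 fell, ICS2 and GSTF6, both of which lost the call without sr45 replicate 2 (adjusted p = 0.401 and 0.156), GSTF6 also without sr45 replicate 1 (0.0621) and asap replicate 1 (0.156). For leaf development 0 of 15 rose and 2 fell, TCP3 and TCP8, which lost the call without sr45 replicate 2 (0.324 and 0.253) and without asap replicate 1 (0.144 and 0.0991), TCP8 also without sr45 replicate 1 (0.0655). Of 18 cell cycle and DNA replication genes 17 had a positive log2 fold change, with a median of 0.42, but only CYCB2-4 was called, and it lost the call without sr45 replicate 1 (0.198), sr45 replicate 2 (0.0501) and asap replicate 1 (0.117). In hypoxia and ethylene 1 of 11 rose and 3 fell, in ERF and DREB factors 2 of 19 rose and 1 fell, in cytochromes P450 2 of 23 rose and 1 fell, in family 1 glycosyltransferases 1 of 16 rose and 1 fell, and in pentatricopeptide repeat proteins 0 of 54 rose and 3 fell. For heat stress edgeR called 0 of 8, with adjusted p no lower than 0.0606, 2 of 8 at an unadjusted p under 0.05 and a count of 0 with DESeq2 too, while 2 rose with all 8 libraries in the fit and 1 rose with the 50-count filter, on log2 cRPKM and without asap replicate 1. HSP17.4B had 22.4 and 26.1 cRPKM in asap and 22.1 and 17.9 in sr45. Of 2 tested flower and seed markers, SEP3 and LEA7, edgeR called 0, with 0 at an unadjusted p under 0.05 and 0 called by DESeq2. Of 11 loci in the mitochondrial DNA insertion of chromosome 2, AT2G07711 rose (0.88 ± 0.30, adjusted p = 0.035), a call lost without sr45 replicate 2 (0.538) and without asap replicate 1 (0.103), and without sr45 replicate 2 the list had 0 higher and 3 lower.

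**Figure D3:**
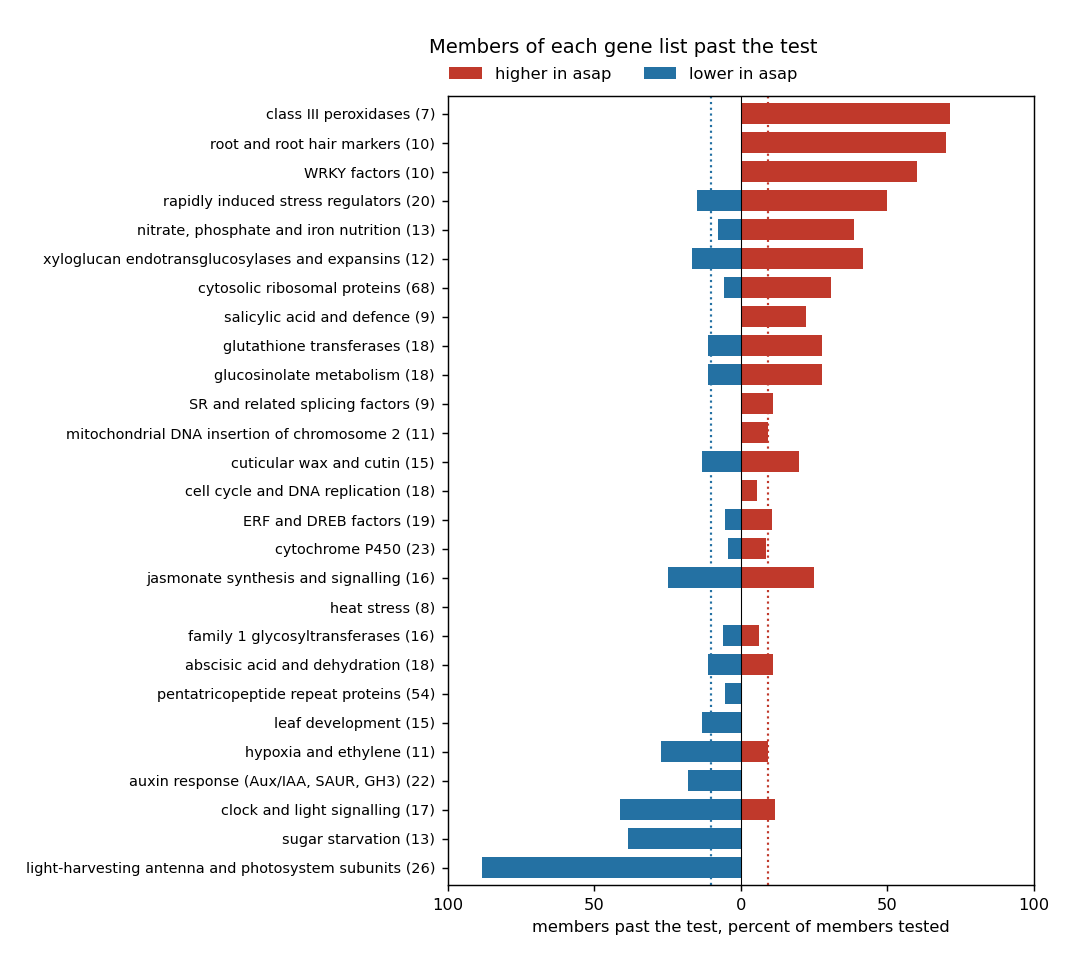
Percent of the tested members of each gene list that were higher in asap (red, to the right) or lower in asap (blue, to the left), with the number tested in brackets and dotted lines at the shares over all loci tested, 9.42% and 10.2%. Antenna and photosystem genes reach furthest to the left, with 23 of 26 lower, and peroxidases, root genes and WRKY factors furthest to the right.

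**Figure D4:**
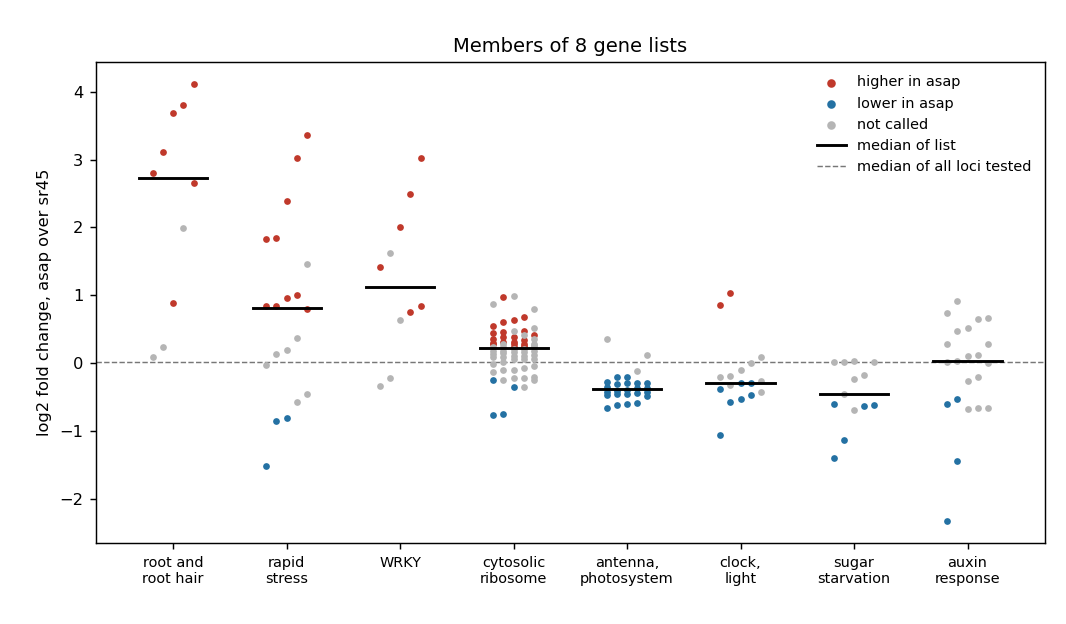
Log2 fold change of asap over sr45 for the tested members of 8 gene lists, with each point 1 gene, red where higher in asap, blue where lower in asap and grey where not called, black lines at the median of each list and a dashed line at the median of all loci tested. Root genes spread up to 4.11 around a median of 2.73, and antenna and photosystem genes cluster around -0.39.

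The other genotypes place these differences. Of the 477 genes higher in asap than in sr45, the mean of sap18sr45 lay closer to sr45 than to asap in 418, and between the 2 lines in 293. Of the 519 lower genes, it lay closer to sr45 in 439. For Col0 the numbers closer to sr45 were 417 of 477 and 381 of 519. Col0 lay beyond sr45, on the far side from asap, for 297 of the higher genes (62.3%) and 269 of the lower genes (51.8%), and beyond asap for 17 and 60. These counts share the sr45 and asap libraries with the choice of genes and carry no test.

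**Figure D5:**
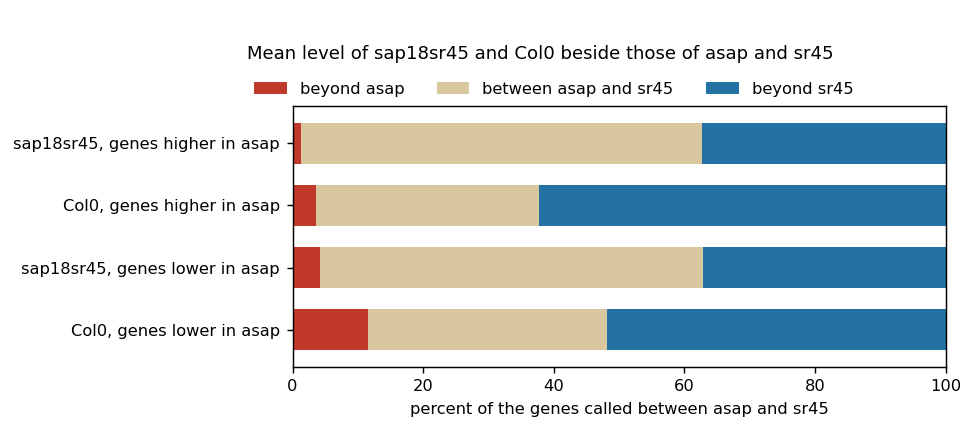
Share of the genes called between asap and sr45 (horizontal axis, percent) for which the mean scaled count of sap18sr45 or Col0 lay beyond asap (red), between asap and sr45 (beige) or beyond sr45 (blue), for the 477 genes higher in asap (upper bars) and the 519 lower in asap (lower bars). Beyond sr45 lay Col0 for 62.3% of the higher and 51.8% of the lower genes.

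Side by side, in a fit of all 8 libraries, genes differed in where along the 4 genotypes they changed. ZAT10 changed by 4.46 on the log2 scale for asap minus sap18sr45, by -1.10 for sap18sr45 minus sr45 and by 1.23 for sr45 minus Col0, and WRKY40 by 3.97, -0.95 and 0.18. STP1 changed by -1.72, 0.30 and -1.98 in the same 3 contrasts, so that it was lower in sr45 than in Col0 and lower again in asap. CYP79F1 showed the same kind of steps upwards, with 1.21, -0.29 and 1.90. PHYA changed by -1.26, 0.19 and -0.89, and RPL9B by 1.32, -0.35 and 1.22. WRR4 and AT1G72430 turned round instead, with -0.98, -0.23 and 0.76 for WRR4 and -1.38, -0.07 and 0.46 for AT1G72430. The contrasts share libraries and are given as values only. Since sap18sr45 held more SR45 transcript than either line compared here, its place between them does not isolate the SAP18 allele.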

How the data were processed

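RNA of whole seedlings was sequenced as stranded messenger RNA libraries. The authors mapped reads with vast-tools 2.5 to its library of Arabidopsis genes (Ensembl Plants 31, TAIR10) and deposited raw counts per gene, not normalized. They also deposited cRPKM, an RPKM corrected for mappability. Whether counting used strand is not stated in these sources, and overlapping and antisense genes cannot be separated. A line naming no locus (at most 0.00281% of counts) and 462 loci without values were left out, and the loci used end on chromosome 2.

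Counts of the 4 libraries were tested in R 4.3.3 with edgeR 4.0.16: filterByExpr, TMM scaling, robust quasi-likelihood fit with 2 residual degrees of freedom, 2-sided, Benjamini-Hochberg adjustment over 5064 loci, threshold 0.05. The other genotypes spread less and were left out of this fit. A positive log2 fold change means higher in asap. SE is the size of the log2 fold change over the square root of F. Error terms of cRPKM are SDs of 2 libraries. At these depths 3 counts are 1.14 to 2.32 CPM. Floors cover counting error only. The procedure was checked on simulated counts.

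Genes named are SR45, the 15 largest rises and 15 largest falls among called genes with a symbol, at least 5 CPM in the higher line and no overlap of libraries, and up to 3 genes called in each direction in each of 29 lists, with the smallest adjusted p. Further called or uncalled list members and the genes under other observations were picked after their values were seen. The lists and the comparison were chosen with earlier results of these data known. List counts carry no set test. Planned list members were dropped where the locus was not among those deposited here or did not carry the expected symbol. Missing symbols removed members of the sugar starvation and root lists, among others, so lists are incomplete. Symbols and promoters came from RefSeq (TAIR10.1, 98.9% of loci found). Alternatives were DESeq2 1.42.0, limma 3.58.1, other scalings and filters, all 8 libraries, a replicate block, each library left out, and the study's rule.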

Additional observations from a re-analysis of the deposited data

How the results depend on the processing

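Over all loci, 881 to 1058 genes were called under the other scalings of counts, the other filters on low counts and the replicate block, and the share higher in asap lay between 45.97% and 50.17%. DESeq2 called 595 genes, 256 higher and 339 lower. On the cRPKM scale 225 genes were lower with a pseudocount of 0.5 and 224 with 1. The rule of the study (quantile-normalized cRPKM, at least 2-fold in every pair of libraries) gave 108 genes, 91 higher and 17 lower. With all 8 libraries in the fit 1433 genes were called. Leaving out each library in turn gave 650 to 980 calls, 301 to 503 higher and 349 to 501 lower, and fewest without sr45 replicate 2. The cause of these differences was not tested.

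Replicate numbers did not pair the libraries, since same-numbered libraries had deviations correlated at -0.04, and the replicate block gave 1058 calls, 507 higher and 551 lower. ERF018 and CYCA1-2 lost their calls under it (adjusted p = 0.057 and 0.0529).

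Of 128 called genes followed one by one, 68 kept direction and call in all alternatives that tested them. Calls were lost by 31 with DESeq2, 21 with quantile-normalized voom, 23 and 24 on the cRPKM scales with pseudocounts of 0.5 and 1, and 13 to 38 with a library left out, most without sr45 replicate 2. These counts cover genes that kept their direction and leave out LHCB1.3 and LHCB6, which lost their calls under quantile-normalized voom as well. They turned to 0.022 and 0.10 on the log2 scale (limma adjusted p = 0.753 and 0.118). Among genes not called, BCAT2 had -0.094 under that setting, -0.0069 with the block and -0.25 to 0.26 with a library left out. NIA1 had 0.035 with quantile-normalized voom, 0.14 on both cRPKM scales and -0.18 to 0.17 with a library left out, and HSP17.4B -0.0095 to 0.28. The setting without the root list and AT2G01021 was chosen after seeing the data and gave 995 calls. Depth was lowest in sr45 replicate 1, where 3 counts were 2.32 CPM, so genes near 0 in sr45 are the least certain.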

Other observations

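Some gene families outside the lists were looked at after their values were seen, so their counts carry no test and only describe these libraries. Their background is the share over all loci tested, 9.42% higher and 10.2% lower in asap. The MLP-like proteins, relatives of the major latex proteins, had 8 members tested, of which 6 rose and 0 fell. Their summed level was 801 and 844 cRPKM in asap, against 432 and 459 in sr45. MLP34 (AT1G70850) had 156 and 170 cRPKM in asap, against 37.2 and 41 in sr45 (log2 fold change 1.91 ± 0.11, edgeR adjusted p = 2.75e-13). Resistance proteins with the TIR, nucleotide-binding and leucine-rich repeat domains went the other way: of 14 tested, 0 rose and 8 fell, including WRR4, and the sum was 82.3 and 83 cRPKM in asap, against 133 and 124 in sr45, with 101 and 103 in Col0. Proteins named for the TIR domain alone had 4 members tested, of which 3 rose and 0 fell, AT1G72910, AT1G72920 and AT1G72940, which have neighbouring locus numbers, and their sum was 99.6 and 109 in asap, against 37.3 and 34.6 in sr45. Genes in a row with similar sequence can share reads, which was not tested.

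Several abundant single genes rose beyond the lists. The extensin gene EXT3 (AT1G21310), a structural protein of the cell wall, had 194 and 195 cRPKM in asap, against 35.4 and 34.9 in sr45 (2.32 ± 0.11, adjusted p = 1.7e-15). The glycine-rich protein gene ATGRP9 (AT2G05440) had 458 and 513 in asap, against 98 and 88.2 in sr45 (2.25 ± 0.10, adjusted p = 8.19e-16). ATDR4 (AT1G73330), named as drought-repressed, had 290.1 and 315 in asap, against 69.3 and 71 in sr45 (1.96 ± 0.09, adjusted p = 1.92e-15). SULTR1;2 (AT1G78000), a sulfate transporter of roots, had 26 and 21.5 in asap, against 3.68 and 5.11 in sr45 (2.25 ± 0.20, adjusted p = 7.81e-10). The calls of these 4 genes stood in all 15 alternatives tried for single genes. Beside shares of 9.42% higher and 10.2% lower over all loci tested, 3 of 6 pectin methylesterases tested rose and 0 fell. Likewise 5 of 12 aspartyl proteases rose and 0 fell. Of 8 transporters grouped as UMAMIT-type 4 rose and 0 fell. Members without a UMAMIT symbol, such as AT1G06890 and AT1G48230, of which AT1G48230 rose, may be transporters of another kind.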
